A study of Mus musculus with 12 samples.

Results

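Lyz2, the gene of the lysozyme that macrophages and neutrophils make, was used to sort cardiomyocyte RNA libraries of the mouse heart by how much myeloid RNA they held. Of the 12 libraries in the series, 11 were compared, and the 2 sets were chosen by the measured Lyz2 level alone: 4 had a Lyz2 level of 3.5 CPM (the raw count over the library total, in the usual unit) or more and are called Lyz2-high, and 7 lay below that level and are called Lyz2-low. The labels cross genotype and diet in groups of 3 libraries: ApoE KO mice on a high fat diet (ApoE KO HFD), ApoE KO mice on chow (ApoE KO CD), wild-type mice on a high fat diet (Wt HFD) and wild-type mice on chow (Wt CD). Every label gives 7 weeks of diet and cardiomyocytes as the cell type. Mice were male and 7 to 8 weeks old at the start. Wild type is C57BL/6J, ApoE KO is B6.129P2-Apoe tm1Unc/J, a germline knockout, and the high fat diet is a Western diet with 0.21% cholesterol. The way the cells were isolated is not given in the sources used here. Apoe, the targeted gene, encodes apolipoprotein E, which carries lipids in blood and is also made by macrophages.

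The heart holds resident macrophages between its muscle cells, and they clear debris, present antigen and engulf organelles that cardiomyocytes release. Tissue-resident macrophages of the mouse are known by the growth factor receptor gene Csf1r, the surface protein gene Adgre1 (F4/80), the complement C1q chains, and scavenger receptors such as Cd163 and the mannose receptor Mrc1. Preparations of cardiomyocytes can carry some of these cells along. In bulk RNA, fewer macrophages and less RNA per macrophage cannot be told apart.

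Lyz2 had 4.56 CPM (144 counts) in Wt CD replicate 1, 5.43 CPM (216 counts) in Wt HFD replicate 1, 7.51 CPM (318 counts) in ApoE KO CD replicate 1 and 9.76 CPM (216 counts) in ApoE KO CD replicate 2, which form the Lyz2-high set (written Wt CD 1, Wt HFD 1, ApoE KO CD 1 and ApoE KO CD 2 below). In the Lyz2-low set it had 2.80, 1.44, 0.775, 1.41, 2.52, 1.58 and 2.79 CPM in Wt CD replicates 2 and 3, Wt HFD replicate 2, ApoE KO CD replicate 3 and ApoE KO HFD replicates 1, 2 and 3, in that order, on 36 to 110 counts a library. The values nearest to the threshold were 4.56 CPM above it and 2.80 CPM below it. Both sets occur within Wt CD, Wt HFD and ApoE KO CD, whereas ApoE KO HFD has Lyz2-low libraries only. Every Lyz2-high library but ApoE KO CD 2 bears replicate number 1, and no library with number 3 is Lyz2-high. These values chose the sets and are a description with no test. No treatment is compared, and every p-value below says how far a gene went along with Lyz2 in these libraries. The labels do not say whether replicates are separate animals, so the p-values rest on how these particular libraries vary. Lyz1, the near-identical neighbour of Lyz2 on chromosome 10, could share reads with it and had 42 counts in the 11 libraries together.

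**Figure D1:**
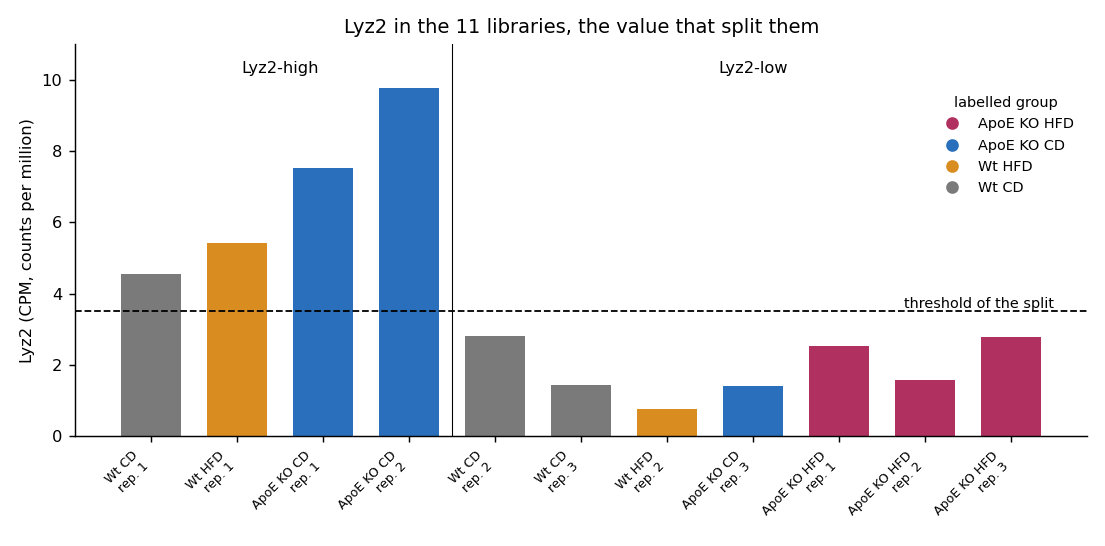
Lyz2 level in CPM (vertical axis) of each of the 11 libraries, with the 4 Lyz2-high libraries on the left, the 7 Lyz2-low libraries on the right and bars coloured by labelled group. The dashed line is the threshold of 3.5 CPM: the lowest Lyz2-high library had 4.56 CPM and the highest Lyz2-low library 2.80 CPM.

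Totals were 22130323 to 46424614 counts a library, with 51.5% to 71.3% on the mitochondrial genome. The library not compared, Wt HFD replicate 3, held 1347110 counts, and over 2610 pairs of a coding and an overlapping non-coding gene on opposite strands the non-coding member took 66.3% of its reads, against 0.506% to 0.682% in the other libraries. Apoe went against the genotype labels on chow: the libraries labelled ApoE KO CD had 25.3, 23.9 and 6.93 TMM-scaled CPM (CPM after edgeR's correction for composition), and those labelled Wt CD had 2.91, 2.12 and 3.61. On the high fat diet the libraries labelled ApoE KO HFD had 1.94, 3.02 and 3.16, and those labelled Wt HFD had 18.9 and 8.44. Groups are therefore named here as their labels give them, and counts per gene do not say which part of Apoe was read. The atrial light chain gene Myl7 was under 1 TMM-scaled CPM in 3 libraries (Wt HFD replicate 2, ApoE KO HFD replicates 2 and 3), all of them Lyz2-low, and counts of called genes are also given without these. Ventricular and general cardiomyocyte markers summed to 101000 to 107000 TMM-scaled CPM in Lyz2-high libraries and to 95400 to 112000 in Lyz2-low libraries, as the cell type label says.

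Lyz2-high libraries had more RNA of antigen presentation, C1q, scavenger receptor and other macrophage genes than Lyz2-low libraries. Of 16931 genes tested with edgeR, Lyz2 left out, 16 were called at an adjusted p under 0.05, or 0.0945%, and each was higher in Lyz2-high libraries. By decreasing evidence these are Cd74, Lilr4b, H2-Eb1, Mrc1, Tgfbi, F13a1, C1qc, Cbr2, Stab1, Cxcl2, Dab2, H2-Ab1, Cd163, Nrros, Dock2 and C1qb. For each of the 16, every Lyz2-high library lay above every Lyz2-low library, which held for 0.656% of all genes tested. Fitted log2 fold changes ran from 0.96 for Stab1 to 2.15 for Cbr2, and 7 of the 16 belong to the macrophage lists, 3 to the MHC class II list and 1 to the chemokine list. No gene was called lower by edgeR (341, or 2.01%, had an unadjusted p under 0.05 in that direction, and 482, or 2.85%, in the other, 4.86% together), and DESeq2 called 2 lower and 46 higher. The count depended on single libraries: edgeR called 2 genes without ApoE KO CD replicate 1, 6 without ApoE KO CD replicate 2, 8 without ApoE KO HFD replicate 1 and 28 without Wt CD replicate 3. Without the 3 libraries low in Myl7 it was 6, with the summed atrial genes as a covariate it was 5, and the median log2 fold change over all genes was −0.00413.

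**Figure D2:**
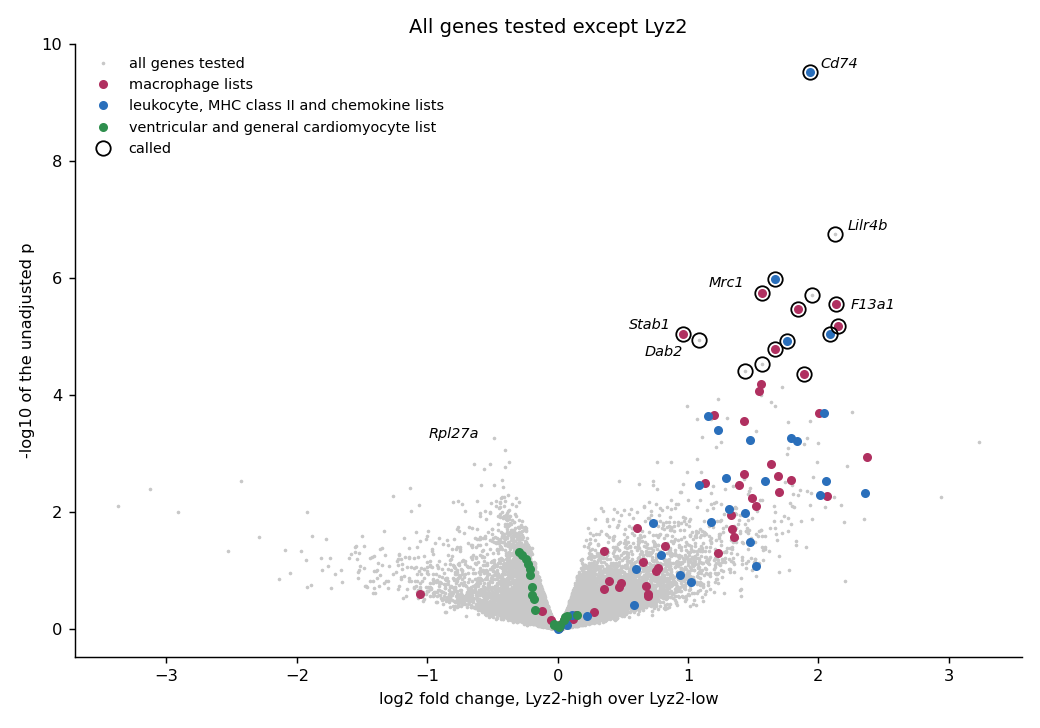
Log2 fold change of Lyz2-high over Lyz2-low libraries (horizontal axis) against −log10 of edgeR's unadjusted p (vertical axis) for the 16931 genes tested. Circled points are the 16 called genes, all to the right of 0; coloured points are members of the macrophage, leukocyte, MHC class II, chemokine and cardiomyocyte lists, and Cd74 stands highest.

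Antigen presentation gave the smallest p-value. Cd74, the invariant chain that guides MHC class II molecules to the endosome, had 6.96, 9.59, 11.9 and 10.8 TMM-scaled CPM in the Lyz2-high libraries Wt CD 1, Wt HFD 1, ApoE KO CD 1 and ApoE KO CD 2, against 1.76 to 3.35 (median 2.43) in the 7 Lyz2-low libraries. The lowest Lyz2-high library was thus well above the highest Lyz2-low library. Its fitted log2 fold change of 1.93 had an SE of 0.168 and an edgeR adjusted p of 4.98e-06, and Cd74 was called in 24 of 24 alternative analyses. H2-Ab1, an MHC class II beta chain, had 3.70, 2.77, 4.95 and 3.82 TMM-scaled CPM in the same Lyz2-high libraries and 0.405 to 2.29 in Lyz2-low libraries (log2 fold change 1.76, SE 0.299, adjusted p 0.0168), and was called in 12 of 24 alternatives. H2-Eb1, another beta chain, had 1.45, 2.47, 3.91 and 2.86 against 0.634 to 1.01 (log2 fold change 1.67, SE 0.241, adjusted p 0.00581), and was called in 19 of 24. Neither beta chain was called with the labelled group as a term, with the atrial covariate or without ApoE KO CD replicate 1. Among the other members, the alpha chain gene H2-Aa had a log2 fold change of 1.23 (adjusted p 0.185) with overlapping sets, the class II transactivator Ciita 0.80 and the peptide-loading chain H2-DMa 0.59, none of them called. Over the whole list, 6 of 7 genes passed the filter on low counts and 3 were called, against 0.0945% of all genes tested. All 6 had a log2 fold change above 0, against 49.3% of all genes, and the median was 1.45. The members' summed level was 15.0 to 26.8 TMM-scaled CPM in Lyz2-high libraries and 4.54 to 9.44 in Lyz2-low libraries.

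The promoters of H2-Eb1 and H2-Aa are shown because class II genes are known to be switched on together through a shared set of boxes just before the start, the last of which is the Y box, an inverted CCAAT sequence. The sequences are RefSeq's (GRCm38.p6), 250 bases before to 50 bases after the start, with the Y box letters CTGATTGG in capitals. H2-Eb1 is at chr17:34305617-34305916 on the plus strand, where the match begins at −62 from the start. H2-Aa is at chr17:34287774-34288073 on the minus strand, where it begins at −51.
H2-Eb1: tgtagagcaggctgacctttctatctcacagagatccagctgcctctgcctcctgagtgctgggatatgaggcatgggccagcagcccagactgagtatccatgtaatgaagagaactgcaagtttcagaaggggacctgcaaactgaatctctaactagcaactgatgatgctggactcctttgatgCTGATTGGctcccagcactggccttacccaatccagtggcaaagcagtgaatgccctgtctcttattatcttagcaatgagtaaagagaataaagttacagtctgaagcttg
H2-Aa: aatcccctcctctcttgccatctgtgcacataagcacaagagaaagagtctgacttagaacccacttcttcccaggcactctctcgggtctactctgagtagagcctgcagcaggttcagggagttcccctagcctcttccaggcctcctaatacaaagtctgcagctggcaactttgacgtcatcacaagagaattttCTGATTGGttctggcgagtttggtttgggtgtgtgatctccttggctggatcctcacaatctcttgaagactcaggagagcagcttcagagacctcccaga
Over both strands, 4.1% of 32851 promoters of that length in the table held these letters, and so did 1 of the 14 called genes that have an entry there (H2-Eb1).

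The C1q chains, which macrophages secrete to mark debris for uptake and start the classical complement pathway, were each higher in every Lyz2-high library than in any Lyz2-low library. C1qc had 2.15, 2.22, 3.04 and 2.39 TMM-scaled CPM in Wt CD 1, Wt HFD 1, ApoE KO CD 1 and ApoE KO CD 2, and 0.275 to 1.05 (median 0.746) in Lyz2-low libraries (log2 fold change 1.84, SE 0.289, edgeR adjusted p 0.00798). C1qb had 2.81, 1.89, 2.05 and 2.35 against 0.178 to 1.08 (median 0.646) (log2 fold change 1.89, SE 0.362, adjusted p 0.0469). C1qa had 1.99, 1.32, 1.80 and 1.99 against 0.263 to 1.18, again with no overlap, and missed the threshold (log2 fold change 1.56, SE 0.310, adjusted p 0.0638). C1qb stood closest to the threshold of the called genes and was called in 10 of 24 alternatives. The 3 chains lie close together on chromosome 4 (C1qb at 136880129 to 136886187 and C1qc at 136889804 to 136893065 on GRCm38).

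The C1qb promoter, at chr4:136886151-136886450 on the minus strand, is shown with that of Cbr2, a carbonyl reductase gene that marks resident macrophages of mouse tissues, at chr11:120731972-120732271 on the minus strand. Capitals mark GAGGAA, the core letters that the myeloid factor encoded by Spi1 recognises, which begin at −30 in C1qb and at −79 in Cbr2.
C1qb: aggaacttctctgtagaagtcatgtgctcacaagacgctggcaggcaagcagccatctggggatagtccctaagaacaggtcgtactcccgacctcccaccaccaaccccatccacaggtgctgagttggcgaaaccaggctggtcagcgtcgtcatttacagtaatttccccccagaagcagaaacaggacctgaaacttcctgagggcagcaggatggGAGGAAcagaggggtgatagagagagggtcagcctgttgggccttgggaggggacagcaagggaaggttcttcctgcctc
Cbr2: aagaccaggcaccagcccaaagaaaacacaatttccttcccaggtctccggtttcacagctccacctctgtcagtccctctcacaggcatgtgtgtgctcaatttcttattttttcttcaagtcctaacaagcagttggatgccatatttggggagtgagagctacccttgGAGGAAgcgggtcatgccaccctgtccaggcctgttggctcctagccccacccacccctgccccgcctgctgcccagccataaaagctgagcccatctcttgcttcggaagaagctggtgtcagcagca
These 6 letters are common and occur on one strand or the other in 28.3% of the 32851 promoters. Of the 14 called genes with an entry 9 held them, and a difference between these shares was not tested. A match is a description of the sequence, not a site that was shown to be bound.

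Scavenger receptors and products of resident macrophages gave 5 more called genes. F13a1, the A subunit of coagulation factor XIII, had 2.59, 4.0, 7.85 and 5.89 TMM-scaled CPM in Wt CD 1, Wt HFD 1, ApoE KO CD 1 and ApoE KO CD 2, and 0.557 to 1.88 (median 0.942) in Lyz2-low libraries (log2 fold change 2.14, SE 0.312, edgeR adjusted p 0.00774). Mrc1, the mannose receptor, had 2.81, 4.16, 6.67 and 5.25 against 0.891 to 2.43 (log2 fold change 1.57, SE 0.236, adjusted p 0.00648). For both genes the ApoE KO CD libraries were the highest and Wt CD 1 was the lowest of the Lyz2-high set, close to the top Lyz2-low library for Mrc1. Cd163, the haemoglobin scavenger receptor, had 1.27, 1.15, 2.87 and 2.58 against 0.423 to 0.927 (log2 fold change 1.66, SE 0.295, adjusted p 0.0214). Cbr2 had 0.980, 0.877, 1.35 and 1.75 against 0.144 to 0.589, a log2 fold change of 2.15. Stab1, the scavenger receptor stabilin-1, differed from these in being nearly level over the Lyz2-high set, with 6.01, 6.05, 6.30 and 5.61 against 2.16 to 4.06 (log2 fold change 0.96, SE 0.162, adjusted p 0.0154). Lyve1, a hyaluronan receptor of resident macrophages and lymphatic endothelium, had 0.886 to 2.64 in Lyz2-high libraries and 0.373 to 0.752 in Lyz2-low libraries and was not called (adjusted p 0.0754). Of the 24 alternatives, Stab1 was called in 17, Cd163 in 15, Cbr2 in 18, Mrc1 in 19 and F13a1 in 21. Folr2 and Timd4, which also mark long-lived resident macrophages of the mouse heart, had log2 fold changes of 1.34 and 0.69, neither called, and their sets overlapped.

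Csf1r and Adgre1, the pair that most often defines mouse macrophages, were not called. Csf1r, the receptor of colony-stimulating factor 1, had 2.06, 2.36, 4.16 and 4.41 TMM-scaled CPM in Wt CD 1, Wt HFD 1, ApoE KO CD 1 and ApoE KO CD 2, and 0.935 to 2.25 in Lyz2-low libraries, so ApoE KO HFD 3 at 2.25 lay above Wt CD 1. Its log2 fold change was 1.20 (SE 0.266, edgeR adjusted p 0.132). Adgre1 had 0.727, 0.849, 1.6 and 1.55 against 0.314 to 0.752, and Wt CD 3 at 0.752 lay above Wt CD 1 (log2 fold change 1.43, SE 0.324, adjusted p 0.137). DESeq2 called both. Of the 4 markers given beside Lyz2, Cd163 and C1qb were thus called by edgeR and Csf1r and Adgre1 were not, and all 4 had higher means in Lyz2-high libraries.

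Over the surface receptor list, 18 of 23 genes passed the filter and 3 were called (Mrc1, Cd163 and Stab1). In 6, every Lyz2-high library lay above every Lyz2-low library. Of all genes tested, 0.0945% were called and 0.656% lay apart in this way. The median log2 fold change was 1.27 and all 18 were above 0, against 49.3% of all genes. The summed level of this list was 23.4, 26.8, 36.5 and 31.4 TMM-scaled CPM in Wt CD 1, Wt HFD 1, ApoE KO CD 1 and ApoE KO CD 2, and 9.94 to 18.2 (median 13.5) in the Lyz2-low libraries, with no overlap. C5ar1, the receptor of the complement fragment C5a, had the largest fitted change of the list (log2 2.37) on 0.253 to 0.575 against 0 to 0.175 TMM-scaled CPM and was not called (adjusted p 0.368). C5ar1 passed the filter on low counts through Lyz2-high libraries alone. Such a member can only lie above 0, so the count of 18 and the median are a description. Mertk and Axl, receptors by which dying cells are engulfed and which other heart cells also express, had log2 fold changes of 0.40 and 0.36.

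In the list of complement, enzymes and secreted proteins, 18 of 22 genes were tested. Besides Lyz2, 3 were below the filter (Lyz1, Wfdc17 and Il10). Called were 4 (C1qb, C1qc, F13a1 and Cbr2), against 0.0945% of all genes, and the median log2 fold change was 1.46. The lysosomal protease gene Ctss, which trims the invariant chain, had 1.32 to 2.31 TMM-scaled CPM in Lyz2-high libraries and 0 to 0.784 in Lyz2-low libraries without overlap, yet its adjusted p was 0.126 (log2 fold change 2.00, SE 0.433). Pf4, the gene of a platelet chemokine that tissue macrophages also express, had a log2 fold change of 1.64 and did not overlap either (adjusted p 0.422). Other uncalled members had log2 fold changes of 0.83 for Igf1, 0.61 for Ctsc, 0.05 for Lgmn, 0.03 for Gas6, 0.05 for Grn and −0.05 for Lpl, the lipoprotein lipase gene, whose level of 1340 to 2400 TMM-scaled CPM makes the sum of this list uninformative.

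Signalling adaptors, Fc receptors and transcription factors gave no call by either tool. In this list 14 of 20 genes passed the filter, 5 had an unadjusted p under 0.05, all of them higher in Lyz2-high libraries, and the median log2 fold change was 0.56. Spi1, whose product drives myeloid development, had 0.437 to 0.886 TMM-scaled CPM in Lyz2-high libraries and 0.0891 to 0.451 in Lyz2-low libraries (log2 fold change 1.39, edgeR adjusted p 0.662). Cebpb, which many cell types express, had a log2 fold change of 0.01. Tyrobp, Fcgr1 and Aif1, defining myeloid genes, lay below the filter with 59, 60 and 26 counts in all 11 libraries together. In the 3 macrophage lists together, 50 of 65 genes were tested, 7 were called and 47 had a log2 fold change above 0. The median was 1.17, and of all genes 0.0945% were called and 49.3% were above 0. Some members, such as C5ar1, passed the filter through Lyz2-high libraries alone, so the count above 0 and the median are a description.

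General leukocyte genes followed with smaller evidence. Of 16 listed genes 13 were tested, edgeR called none and DESeq2 called 3. An unadjusted edgeR p under 0.05 was found for 9, all higher, against 2.85% of all genes in that direction. The median log2 fold change was 1.18 and all 13 were above 0, against 49.3% of all genes. Coro1a, a member of the list, passed the filter through Lyz2-high libraries alone. It could only lie above 0, so these counts and the median are a description. Ptprc, the CD45 gene, had 1.61, 0.986, 2.19 and 1.47 TMM-scaled CPM in Wt CD 1, Wt HFD 1, ApoE KO CD 1 and ApoE KO CD 2, and 0.226 to 1.20 in Lyz2-low libraries (log2 fold change 1.09, edgeR adjusted p 0.662). The summed level of the list did not overlap, with 13.3 to 16.9 TMM-scaled CPM in Lyz2-high libraries and 5.21 to 9.82 in Lyz2-low libraries.

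Among the called genes, 5 belong to no list. Lilr4b, a leukocyte immunoglobulin-like receptor gene, had 1.80, 2.05, 2.93 and 2.43 TMM-scaled CPM in Wt CD 1, Wt HFD 1, ApoE KO CD 1 and ApoE KO CD 2, and 0.278 to 0.827 in Lyz2-low libraries (log2 fold change 2.13, SE 0.272, edgeR adjusted p 0.00147). It has a close paralog, Lilrb4a, so reads may be split between them, and its level is uncertain. Tgfbi, a secreted matrix protein gene that macrophages express, had 1.45 to 2.31 against 0.187 to 0.726 (log2 fold change 1.95). Dab2, an endocytic adaptor that also marks resident macrophages, had 3.61 to 5.09 against 1.41 to 2.83 (log2 fold change 1.08). Nrros, which anchors latent TGF-beta on myeloid cells, had 0.822 to 1.27 against 0.235 to 0.448 (log2 fold change 1.57). Dock2, an activator of Rac in leukocytes, had 1.10 to 1.87 against 0.392 to 0.789 (log2 fold change 1.44). Adjusted p-values of these last 4 were 0.00648, 0.0168, 0.0352 and 0.0439 in edgeR, and Nrros and Dock2 were each called in 7 of 24 alternatives.

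**Figure D3:**
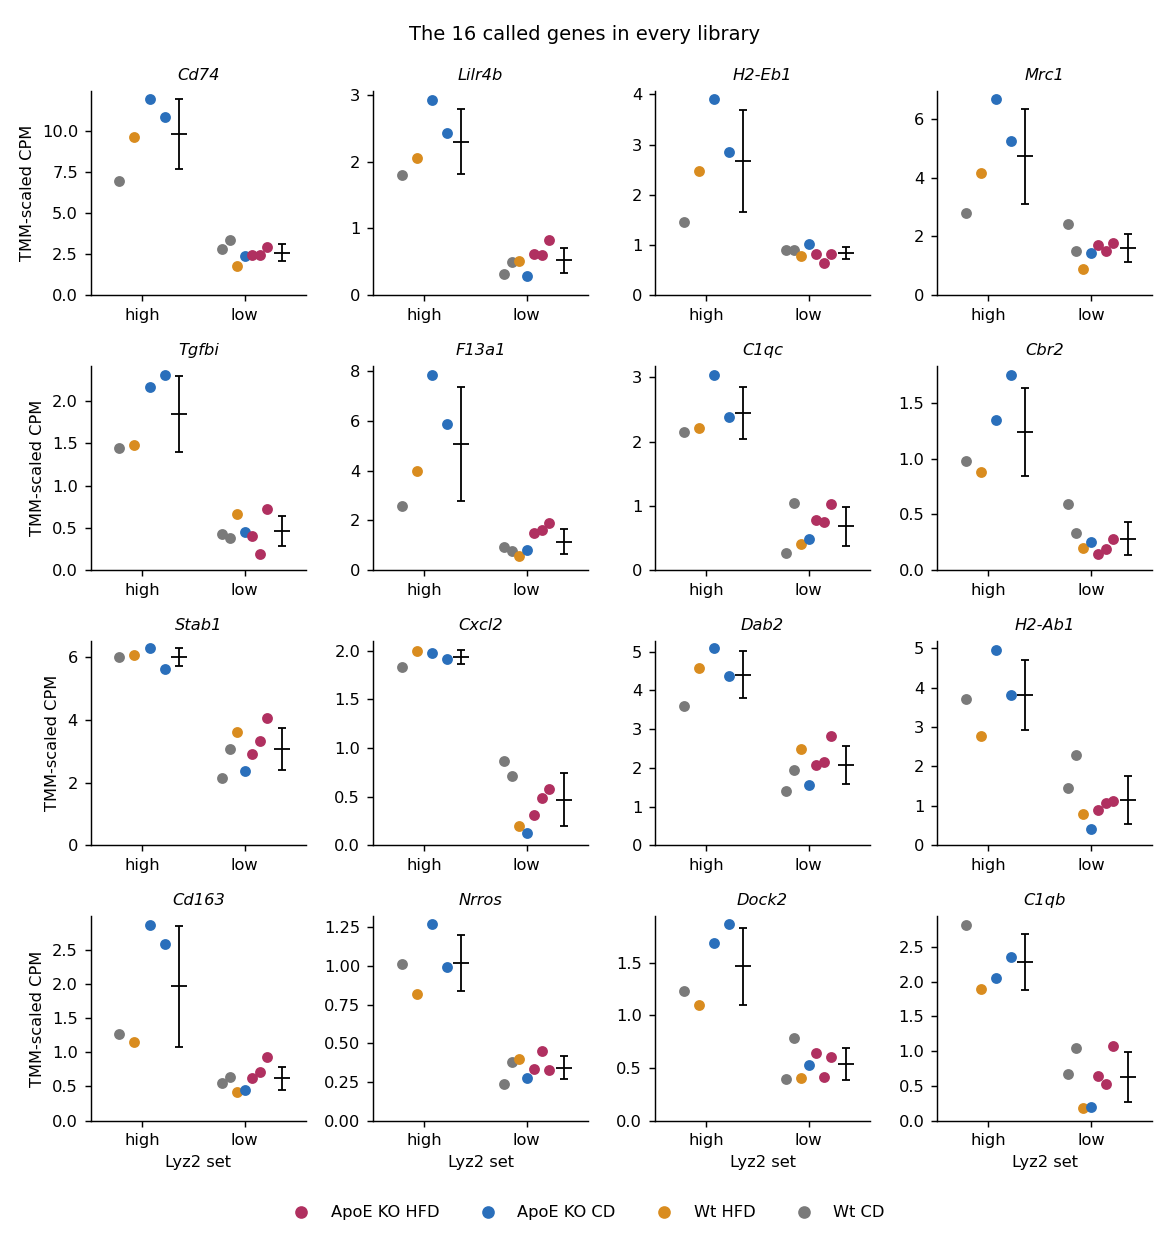
TMM-scaled CPM (vertical axes, each from 0) of the 16 called genes in the 4 Lyz2-high libraries (left in each panel) and the 7 Lyz2-low libraries (right), coloured by labelled group, with the mean and SD of each set beside the points. No panel shows an overlap; the ApoE KO CD libraries are the highest for F13a1, Mrc1 and Cd163, and Wt CD replicate 1 is the highest for C1qb.

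Cxcl2, a chemokine gene that attracts neutrophils and that activated macrophages transcribe early, was the only called member of the chemokine and cytokine list. It had 1.83, 2.00, 1.97 and 1.91 TMM-scaled CPM in Wt CD 1, Wt HFD 1, ApoE KO CD 1 and ApoE KO CD 2, against 0.126 to 0.863 (median 0.485) in Lyz2-low libraries. The Lyz2-high values were nearly equal, whereas Lyz2 itself differed among these libraries. The log2 fold change was 2.09 (SE 0.354, edgeR adjusted p 0.0154). Other chemokine genes had similar fitted changes on lower levels without being called: 1.84 for Ccl2, 2.01 for Ccl3, 2.35 for Ccl4, 2.05 for Ccl6 and 2.06 for Ccl7, with adjusted p-values of 0.235, 0.789, 0.763, 0.126 and 0.643. Il1b, the interleukin 1 beta gene, had 0.731 to 1.15 against 0 to 0.471 TMM-scaled CPM without overlap (log2 fold change 1.69, adjusted p 0.602). Cxcl12 and Csf1, which stromal cells and cardiomyocytes make, had log2 fold changes of 0.00 and 0.01. Of 19 listed genes 14 were tested, all 14 were above 0, against 49.3% of all genes, and the median log2 fold change was 1.31. Ccl4 passed the filter through Lyz2-high libraries alone and could only lie above 0, so this count and median are a description.

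The Cxcl2 promoter, at chr5:90903649-90903948 on the plus strand, is shown because NF-kappaB is known to switch on this gene in macrophages; capitals mark the kappaB letters GGAATTTCC, which begin at −96.
Cxcl2: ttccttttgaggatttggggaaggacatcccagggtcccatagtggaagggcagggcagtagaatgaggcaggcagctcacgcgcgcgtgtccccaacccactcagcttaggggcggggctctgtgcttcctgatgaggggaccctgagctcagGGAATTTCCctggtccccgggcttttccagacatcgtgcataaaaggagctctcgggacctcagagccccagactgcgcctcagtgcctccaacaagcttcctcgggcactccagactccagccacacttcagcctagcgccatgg
On either strand these letters occurred in 0.317% of the 32851 promoters and in 1 of the 14 called genes with an entry.

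Of the markers of other blood cells none was called, and most lay below the filter on low counts. Of 11 neutrophil genes 9 were below the filter, among them S100a8 and S100a9 with 6 and 12 counts and Ly6g with 5 counts in all 11 libraries together, and the list summed to 0.411 to 1.55 TMM-scaled CPM in Lyz2-high libraries and 0.49 to 2.71 in Lyz2-low libraries. Lymphocyte and NK genes (3 of 14 tested) and mast cell genes (2 of 7 tested) had no member with an unadjusted p under 0.05. Of 9 monocyte genes 5 were tested and none was called by either tool (1 had an unadjusted p under 0.05). That member is Fn1, the fibronectin gene, which stromal cells also express, with 4.37 to 7.31 TMM-scaled CPM in Lyz2-high libraries and 2.11 to 6.46 in Lyz2-low libraries (log2 fold change 0.58). Ccr2, the chemokine receptor of monocytes, had 0.278 to 0.506 against 0 to 0.902 TMM-scaled CPM (log2 fold change 0.40), and Ly6c2, Plac8 and Chil3 had 18, 12 and 22 counts in all. Neutrophils also express Lyz2, and their part in the Lyz2 level was not tested: Csf3r, a neutrophil growth factor receptor gene, had 0.0633, 0.0548, 0.534 and 0.437 TMM-scaled CPM in Wt CD 1, Wt HFD 1, ApoE KO CD 1 and ApoE KO CD 2, and 0.0223 to 0.471 in Lyz2-low libraries.

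Markers of other cell types of the heart gave no call. Endothelial genes had a median log2 fold change of −0.06 over 18 tested, and pericyte and smooth muscle genes 0.05 over 12. Ventricular and general cardiomyocyte genes had −0.18 over 18, and these lists had no call by either tool. At an unadjusted edgeR p under 0.05 were 1 endothelial gene and the smooth muscle genes Tagln and Myh11, higher, and 1 cardiomyocyte gene, lower. Tagln and Myh11 were highest in ApoE KO CD 1, at 3.57 and 23.5 TMM-scaled CPM. Fibroblast genes gave no call by either tool (3 of 16 had an unadjusted edgeR p under 0.05). Above 0 were 15 of 16, against 49.3% of all genes, with a median of 0.40. The list summed to 51.2 to 67.9 TMM-scaled CPM in Lyz2-high libraries and 38 to 60.8 in Lyz2-low libraries. Epicardial genes (5 of 6 tested, all 5 above 0, 1 with an unadjusted p under 0.05) had a median of 1.05 at levels of 1.55 to 5.04 in sum against 0.51 to 3.5. Atrial genes (12 tested, 10 above 0, 1 with an unadjusted p under 0.05) had a median of 0.83, and the 3 libraries low in Myl7 are all Lyz2-low. The atrial list summed to 295 to 404 TMM-scaled CPM in Lyz2-high libraries and 194 to 339 in Lyz2-low libraries. The part of fibroblast, epicardial and atrial tissue in the calls was not tested beyond the counts given with the atrial covariate and without those 3 libraries. Immediate early genes, which cell dissociation is known to raise, had a median of 0.25 (20 of 22 tested, 16 above 0, 2 with an unadjusted p under 0.05). Interferon-stimulated genes had a median of 0.12 (19 of 20 tested, 11 above 0, 4 with an unadjusted p under 0.05). Neither list had a call by either tool, and 49.3% of all genes were above 0.

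**Figure D4:**
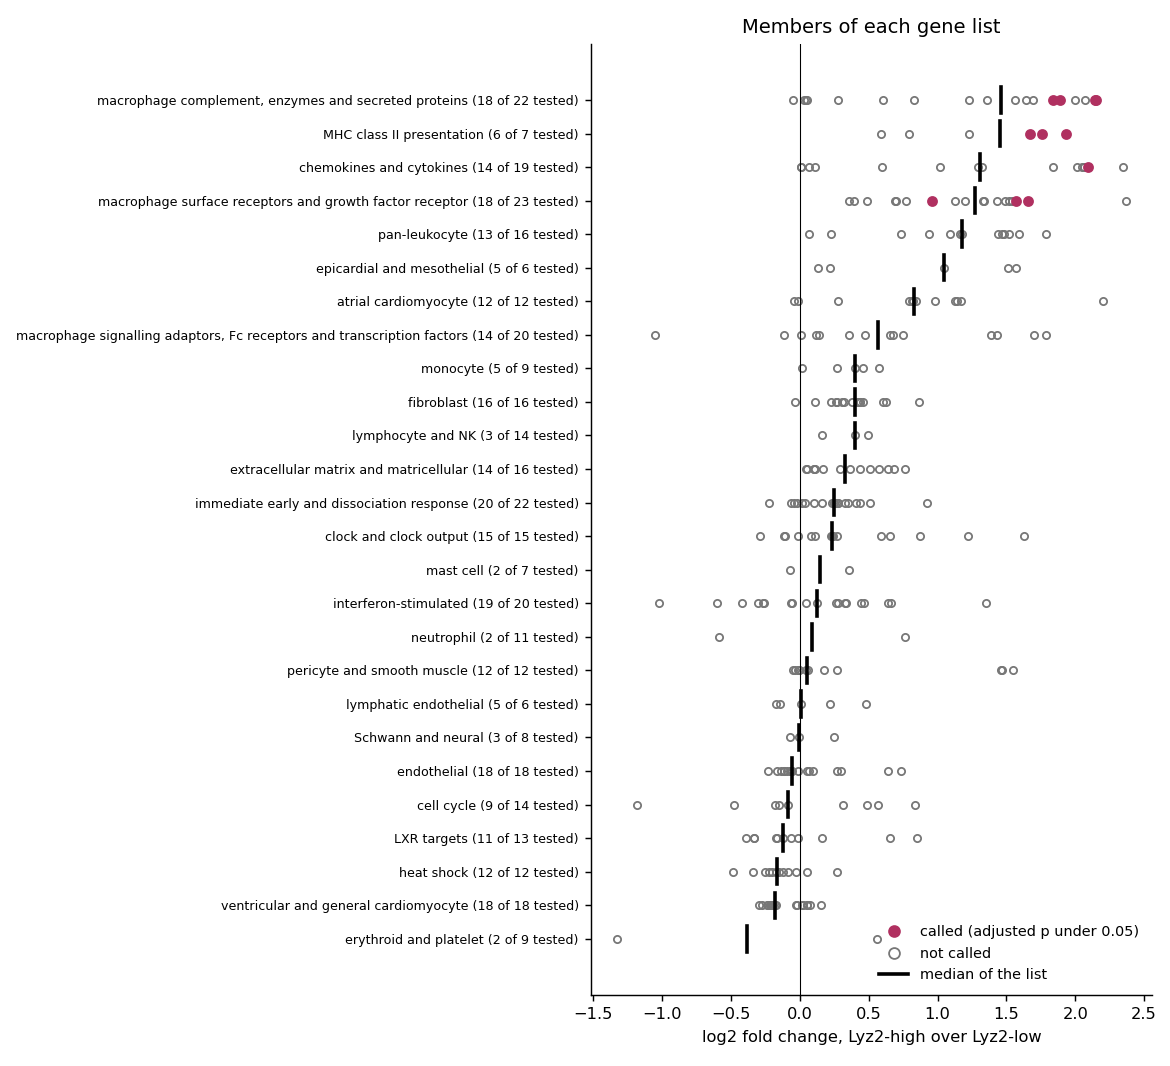
Log2 fold change of Lyz2-high over Lyz2-low libraries (horizontal axis) for the tested members of each gene list (rows, ordered by median). Filled points are called genes and black bars are list medians: all 11 filled points lie in the macrophage, MHC class II and chemokine rows, and the cardiomyocyte median is −0.18.

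The comparison was also made within the labelled groups that hold both sets. With the labelled group as a term in the edgeR fit, 9 genes were called, or 0.0532%, and 8 of them were among the 16: Cd74, F13a1, Lilr4b, C1qb, C1qc, Stab1, Cxcl2 and Dab2. The other 8 of the 16 (H2-Ab1, H2-Eb1, Mrc1, Cd163, Cbr2, Tgfbi, Nrros and Dock2) were not called in that fit. The log2 ratio of Lyz2-high to Lyz2-low means within a group (0.1 CPM added) is above 0 by construction for genes whose sets do not overlap, and only its size is described here. For F13a1 it was 1.48 in Wt CD, 2.64 in Wt HFD and 2.94 in ApoE KO CD, and for C1qb 1.6, 2.84 and 2.93. Csf1r varied more, with 0.24 in Wt CD, 1.25 in Wt HFD and 2.05 in ApoE KO CD. No gene was called for a difference of the Lyz2 split between genotype labels. An unadjusted edgeR p under 0.05 was found for 442, where chance gives about 847. The Lyz2-high libraries labelled ApoE KO were all on chow, so this fit cannot tell genotype from diet. Apoe also went against the genotype labels on chow. Between diet labels the comparison would rest on Wt HFD 1, the only Lyz2-high library on the high fat diet, and is not read here. Whether the Lyz2 split differs between groups is thus not decided here.

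Lyz2-high libraries were not alike in their macrophage RNA. The C1q chains summed to 6.96, 5.42, 6.89 and 6.72 TMM-scaled CPM in Wt CD 1, Wt HFD 1, ApoE KO CD 1 and ApoE KO CD 2, a narrow range, and to 0.935 to 2.76 in Lyz2-low libraries. F13a1 relative to that sum was 0.373, 0.737, 1.14 and 0.876, so Wt CD 1 had about as much C1q RNA as the ApoE KO CD libraries but less F13a1. Lyz2 relative to C1q was likewise lowest in Wt CD 1, with 0.655, 1.09, 1.30 and 1.28 in the same order. As C1q was in a narrow range, this ratio mostly follows the Lyz2 level that chose the sets and is a description only. In Wt CD 3, a Lyz2-low library, both ratios were also low (F13a1 0.333 and Lyz2 0.635), whereas Wt CD 2, also Lyz2-low, had 0.444 and 1.22. Differences between single libraries have no replicate and no test.

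Apoe relative to the C1q chains differed between labelled groups. Within Wt HFD and ApoE KO CD, Apoe and the C1q chains were both higher in Lyz2-high libraries. The log2 ratio of the Apoe means of the 2 sets there was 1.16 and 1.81 (0.1 CPM added), against 0.02 in Wt CD. Among Lyz2-high libraries Wt CD 1 had 2.91 TMM-scaled CPM of Apoe, and Wt HFD 1, ApoE KO CD 1 and ApoE KO CD 2 had 18.9, 25.3 and 23.9. Relative to the C1q sum, Apoe was 0.418 in Wt CD 1, and 3.49, 3.67 and 3.56 in the other Lyz2-high libraries. Among Lyz2-low libraries this ratio was 1.00 and 1.52 in those labelled Wt CD, 0.92, 1.56 and 1.15 in those labelled ApoE KO HFD, 9.02 in Wt HFD 2 and 6.09 in ApoE KO CD 3. The ratio thus sorted the libraries by labelled group. It was at most 1.56 in Wt CD and ApoE KO HFD and at least 3.49 in Wt HFD and ApoE KO CD. Apoe alone sorted them in the same way, with at most 3.61 and at least 6.93 TMM-scaled CPM. Within each labelled group that held both sets, the ratio was lower in Lyz2-high libraries. Between the Lyz2 sets the log2 fold change of Apoe was 2.07 (SE 0.575) and was not called (edgeR adjusted p 0.805).

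**Figure D5:**
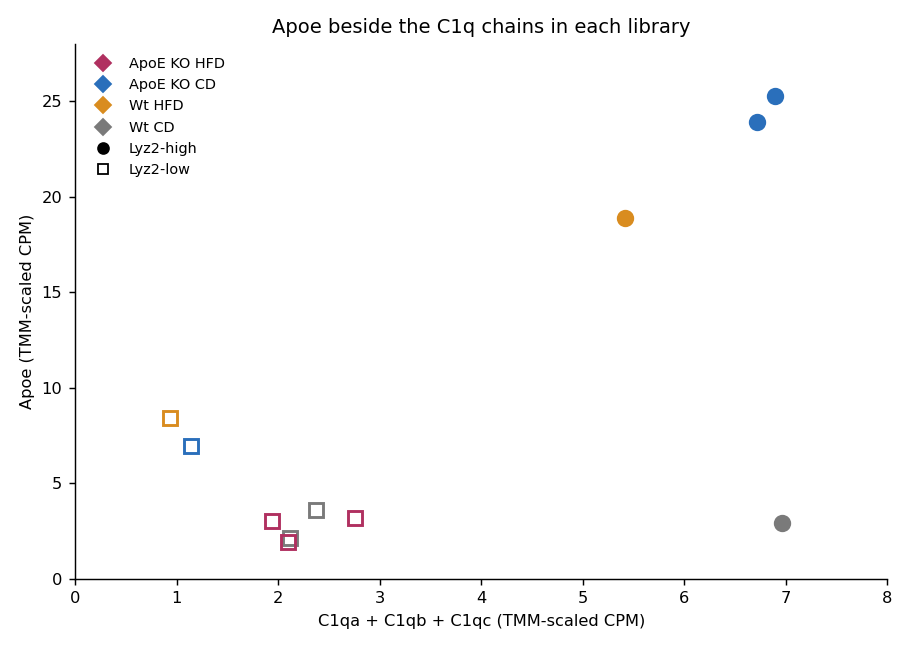
Apoe (vertical axis) against the sum of C1qa, C1qb and C1qc (horizontal axis), both in TMM-scaled CPM, for the 4 Lyz2-high libraries (filled circles) and the 7 Lyz2-low libraries (open squares), coloured by labelled group. Wt CD replicate 1 lies at the lower right with 6.96 of C1q and 2.91 of Apoe, whereas the other Lyz2-high libraries had 18.9 to 25.3 of Apoe.

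No gene was called lower in Lyz2-high libraries by edgeR, and the 10 with the smallest p-values and no overlap are given as values. The ribosomal protein gene Rpl27a had 12, 11.6, 15.6 and 13.6 TMM-scaled CPM in Wt CD 1, Wt HFD 1, ApoE KO CD 1 and ApoE KO CD 2, and 16.5 to 21.7 in Lyz2-low libraries (log2 fold change −0.49, SE 0.119, edgeR adjusted p 0.225). Mrpl2, a protein of the mitochondrial ribosome, had 9.62 to 11.6 against 12.6 to 15.5 (log2 fold change −0.41, adjusted p 0.291). DESeq2 called this pair at adjusted p-values of 0.0474 and 0.0357. The other 8 were Asb10, Timm10, a chaperone of mitochondrial import, Mrpl43, also of the mitochondrial ribosome, Ppp1r8, Mycbp, Ankrd9, Fam57b and Cyb5a, with log2 fold changes of −0.30 to −0.59 and edgeR adjusted p-values of 0.407 to 0.903. Of all genes tested, 0.23% lay lower in every Lyz2-high library than in any Lyz2-low library.

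No difference between the sets was shown in 4 general properties of the libraries. Totals averaged 33958913 ± 9121000 counts in Lyz2-high libraries and 34275258 ± 7532000 in Lyz2-low libraries (SD, n = 4 and 7; exact two-sided permutation test, p = 0.945). The mitochondrial share was 64.2% ± 5.04 in Lyz2-high libraries and 61.2% ± 6.77 in Lyz2-low libraries (exact permutation p = 0.448). Genes with at least 1 CPM (10610 ± 318 against 10620 ± 276) and the summed cardiomyocyte markers (101900 ± 14590 against 106600 ± 21540 CPM) gave exact permutation p-values of 0.933 and 0.667. Over nuclear counts only, the last 2 differences turn from lower to higher in Lyz2-high libraries (by 557 genes and 10730 CPM). Adjusted over these 4 measures every p was 0.945, and the smallest p that 330 arrangements allow is 0.00606.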

How the data were processed

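RNA of cardiomyocytes was measured in 12 libraries. Per the labels, a SMART-Seq Stranded kit was used. The submitters' processing notes name HTSeq 0.13.5, Trimmomatic 0.39 and STAR 2.7a, and the build GRCm38 (mm10). The deposited files hold the authors' whole-number counts per gene, not normalized, for 55335 IDs; the GENCODE vM21 annotation named 55154. edgeR 4.0.16 in R 4.3.3 was applied with TMM factors, filterByExpr by labelled group, the robust quasi-likelihood F test and Benjamini-Hochberg adjustment over all genes tested (common biological coefficient of variation 0.2196, 9 residual degrees of freedom); a call is an adjusted p under 0.05. SE is the size of the log2 fold change divided by the square root of the F statistic, not a value estimated by the fit itself. The members, lists and the rule for named genes (markers of the split, members of the macrophage lists, up to 10 called or lowest-p genes per direction with a mean of at least 1 CPM and no overlap, then the best members of each list) were chosen with earlier results of these data known. Genes named outside this rule were chosen after their values were seen. Alternatives were RLE factors, DESeq2 1.42.0, other filters, labels, replicate number or atrial genes as terms, other forms of the split, and each library left out. The fitting was tested on simulated data. The column of the left-out library bears another library's name in its header, with other values.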

Additional observations from a re-analysis of the deposited data

Results flagged for a closer look

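Within a set of 4 or 7 libraries, 8 of 148 values tested stood apart from the others by Dixon's criterion, where chance gives about 1 in 20. In the Lyz2-high set, ApoE KO CD replicate 1 had 3.57 TMM-scaled CPM of the smooth muscle gene Tagln and 23.5 of the smooth muscle myosin gene Myh11, against at most 0.915 and 5.77 in the other Lyz2-high libraries. Wt CD replicate 1 had 1.14 of the platelet integrin gene Itga2b, against at most 0.356. In the Lyz2-low set, Wt CD replicate 3 had 0.827 TMM-scaled CPM of the neutrophil granule gene Ltf and 2.03 of the early response gene Nr4a2. Wt CD replicate 2 had 0.432 of the NK cell gene Klrb1c, and ApoE KO HFD replicate 3 had 0.927 of the mesothelial gene Upk3b. ApoE KO HFD replicate 2 had the fewest genes with at least 1 CPM, 10038.

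The library left out, Wt HFD replicate 3, had 12 counts of Lyz2, or 8.91 CPM, above the level that 3 counts would give. It had 41 counts of Csf1r, 0 of C1qb and 1 of Cd74. Its counts stood mostly on the opposite strand, so these values do not measure the genes and place it in neither set.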

How the results depend on the processing

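The 16 called genes kept log2 fold changes above 0 in all 368 values under 23 alternatives (0.892 to 2.69), and only Cd74 was called in each alternative. Their sets do not overlap, so leaving out libraries or comparing within labelled groups cannot turn the sign. Those values describe only the size of the change. The count of called genes was 16 in the main analysis. It was 48 with DESeq2, 44 with no filter, 9 with the labelled group as a term, 5 with the atrial list as a covariate and 6 without the libraries low in Myl7 (chosen after seeing the data). Leaving out 1 library gave 2 to 28. The replicate number as a block left 1 call, Cd74. Among Lyz2-high libraries, Wt CD 1, Wt HFD 1 and ApoE KO CD 1 bear number 1. ApoE KO CD 2 bears number 2, so the split partly follows the replicate number. In 2 of 15 same-numbered pairs the deviations from the group means correlated above 0.1 (range −0.239 to 0.208), and 2 libraries correlated best with their own number. Over all genes the numbers thus showed no general pairing. An effect shared by same-numbered libraries on few genes was not tested. Signs turned for 8 uncalled genes of low counts. With genotype and diet as terms the log2 fold change was −0.10 for Csf3r, −0.19 for Klrb1c and 0.147 for Kit. With the replicate block it was 0.583 for Ltf, −0.784 for Cd3g, −0.157 for Klrb1c, 0.186 for Kit and −0.113 for Itga2b. With the labelled group it was 0.034 for Kit and 0.031 for Kcna1. With the atrial covariate it was −0.267 for Cd3g, 0.426 for Kit and 0.181 for Hbb-bs, and without the libraries low in Myl7 −0.137 for Cd3g and 0.49 for Kit. Leaving out 1 library gave −0.00181 to 0.862 for Klrb1c, −0.204 to 0.0517 for Kit, −0.157 to 0.781 for Itga2b and −0.369 to 0.30 for Kcna1. It also gave a difference between the sets (Lyz2-high minus Lyz2-low) of −3117000 to 3627000 in total counts, −130.9 to 112.8 in genes with at least 1 CPM and −11230 to 540 CPM in cardiomyocyte markers. Over nuclear counts only, the last-named measures turned from lower to higher in Lyz2-high libraries, by 557 genes and 10730 CPM. The cause of these changes was not tested. Most markers lie under 3 CPM, so counting error limits single values.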

Other observations

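Matrix genes, read beside the macrophage lists, had a log2 fold change above 0 in 14 of 14 tested members (16 listed), with a median of 0.33 and no call by edgeR (4 at an unadjusted p under 0.05) or DESeq2. Clock genes had a log2 fold change above 0 in 11 of 15, and 49.3% of all genes tested did. Dbp, a clock output gene, had 42.5 and 37.4 TMM-scaled CPM in Wt HFD replicate 1 and ApoE KO CD replicate 2 but 1.45 and 4.02 in Wt CD replicate 1 and ApoE KO CD replicate 1, all of them Lyz2-high, and 6.4 to 18.0 in Lyz2-low libraries. The median log2 fold change was 0.24 over 15 clock genes, −0.17 over 12 heat shock genes, −0.12 over 11 of 13 targets of the sterol receptor LXR, −0.09 over 9 of 14 cell cycle genes, 0.01 over 5 of 6 lymphatic genes, 0.00 over 3 of 8 neural genes and −0.38 over 2 of 9 erythroid and platelet genes. None of these genes was called by edgeR or DESeq2, and at an unadjusted p under 0.05 were 2 clock genes and 1 LXR target, higher in Lyz2-high libraries, and 1 cell cycle gene, lower. No adipocyte gene of 8 passed the filter.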
